A study of Homo sapiens with 8 samples.

Results

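The DNA replication and mitosis genes examined here were a list of 49 genes, named for their roles in the cell cycle by a rule that uses no measured value. All 49 were placed on GRCh37 (the build also called hg19), among 20083 protein-coding genes with a unique symbol. By role, 11 act in or regulate origin licensing and loading of the replicative helicase, and 9 act in origin firing and at the fork. Another 4 supply nucleotides, 6 are mitotic kinases and phosphatases, and 5 act in the spindle checkpoint and anaphase. A further 9 build the spindle and the mitotic chromosomes, and 5 are transcription factors of the cell cycle. H3K4me3 and H3K27ac peaks were available from HL-60 cells, an established promyelocytic leukemia line, treated with 1 µM all-trans retinoic acid (ATRA) for 4 days or with the same amount of ethanol (control). Each mark had 2 ATRA and 2 control libraries, so that 8 libraries were used in all. The cells of both groups are a single line grown in culture. The question was whether the arrest of proliferation that accompanies differentiation under ATRA is visible at the promoters of these genes.

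Cells prepare to copy their DNA by loading the MCM helicase at origins with the help of ORC, CDC6 and CDT1, and start copying when CDC45 and the GINS complex join the helicase. Replication genes are switched on before S phase by E2F factors, whereas many mitotic genes are switched on later through the CHR element and the CCAAT box, which the DREAM and MuvB complexes and the factor NF-Y read. H3K4me3 marks active or poised promoters, and H3K27ac marks active promoters and enhancers. ATRA drives HL-60 cells towards granulocytes, which no longer divide.

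A peak is a stretch that the authors' peak caller marked as enriched, and its width says nothing of its height. The width at a transcription start site (TSS) was the summed length of the peaks within 500 bp of the start of the canonical transcript, and the window length was the length under peaks over the gene body plus 10 kb on each side. The H3K4me3 libraries covered between 47.7 Mb (control replicate 2) and 63.2 Mb (ATRA replicate 1). The H3K27ac libraries covered between 28.8 Mb (control replicate 1) and 86.1 Mb (ATRA replicate 2). Of 9 promyelocyte markers, 6 had an H3K4me3 peak at the TSS in all 4 libraries, while ELANE and AZU1, which encode granule proteins, had none in any library. Of the T cell, B cell, erythroid and fibroblast markers, 6 each, between 0 and 1 of a set had such a peak in any library.

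H3K4me3 was present at the TSS of all 49 members in all 4 libraries, against 52.4% of all protein-coding genes. No member was without a peak in any library, whereas 44.5% of all genes had none and 3.08% had it in 1 to 3 libraries. Among the latter, 62 genes (0.309% of all) had such a peak in both ATRA libraries and in no control library, and 20 genes (0.0996% of all) the reverse. In bulk chromatin, a mark carried by fewer cells cannot be told apart from a weaker mark in every cell, and a peak that is called in both conditions does not show that the mark was equally strong. With only the peaks of −log10 q of at least 5, H3K4me3 was called in all 4 libraries at 42 of the 49 (38.6% of all genes), and the other 7 (MCM5, MCM6, MCM10, PLK1, MKI67, E2F1 and E2F2) had it in 1 to 3.

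H3K27ac was called at the TSS of 38 members in all 4 libraries, against 32.1% of all genes and 60.5% of the genes with H3K4me3 in all 4. GINS2, a subunit of the GINS complex, and CDC25C, the phosphatase that activates CDK1 at mitotic entry, had no H3K27ac peak at the TSS in any library, as had 49.3% of all genes and 11.0% of those with H3K4me3 in all 4. The other 9 had it in 1 to 3 libraries, as had 18.6% of all genes and 28.5% of those with H3K4me3 in all 4. No member had H3K27ac in both libraries of a condition and in neither of the other. Within that 18.6%, 2.56% of all genes had it in both ATRA libraries only and 0.339% in both control libraries only. Among the genes with H3K4me3 in all 4 libraries these shares were 3.38% and 0.522%. The absence among members depended on the interval. At the TSS base itself, GINS1 and KIF23 had H3K27ac in both ATRA libraries only (4.08% of members, 3.03% of all genes). With the annotated gene 5′ end as the start, PCNA did (2.04% of members, 2.6% of all genes).

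Of the 9 members with H3K27ac in some libraries, CDT1, GINS1, TK1, CDC20, E2F1 and E2F8 had it in both ATRA and 1 control library. The control library without it was replicate 1 at CDT1 and CDC20 and replicate 2 at the others. MCM10, POLE2 and MYBL2 lacked it in at least 1 ATRA library. The share of all genes with each combination was not counted. At MCM10, a scaffold of the starting fork, a peak of 352 bp was called in control replicate 1 alone. At the licensing factor CDT1 the widths were 807 and 4574 bp in ATRA and 0 and 5066 bp in control. The 0 was in control replicate 1, where a peak of 387 bp lay from 519 to 905 bp past the TSS, just outside the interval counted. E2F1, the activator of S phase genes, had 1716 and 442 bp in ATRA and 1913 and 0 bp in control. Control replicate 2 had an E2F1 peak from 1161 to 1495 bp past the TSS. All of the 9 except POLE2 had a value of 0 in at least 1 control library. CDT1 had its widest peak in the other control library. With 2000 bp either side of the TSS, 6 members had H3K27ac in 1 to 3 libraries (19.0% of all genes). CDT1, E2F1 and E2F8 then had it in all 4.

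At TK1, the thymidine kinase of the salvage pathway, the widths were 682 and 1759 bp in ATRA and 587 and 0 bp in control. CDC20, the activator of the anaphase-promoting complex, had 503 and 3554 bp in ATRA against 0 and 1079 bp. MYBL2, the B-Myb factor of late cell cycle genes, had 369 and 0 bp in ATRA against 642 and 0 bp. The ATRA values exceeded both control values at TK1 and overlapped with them at CDC20 and MYBL2. POLE2, a subunit of DNA polymerase epsilon, had 0 and 1874 bp in ATRA against 1368 and 2245 bp in control. GINS1 and E2F8 belong to the same 9 and are described with the H3K27ac widths.

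**Figure D1:**
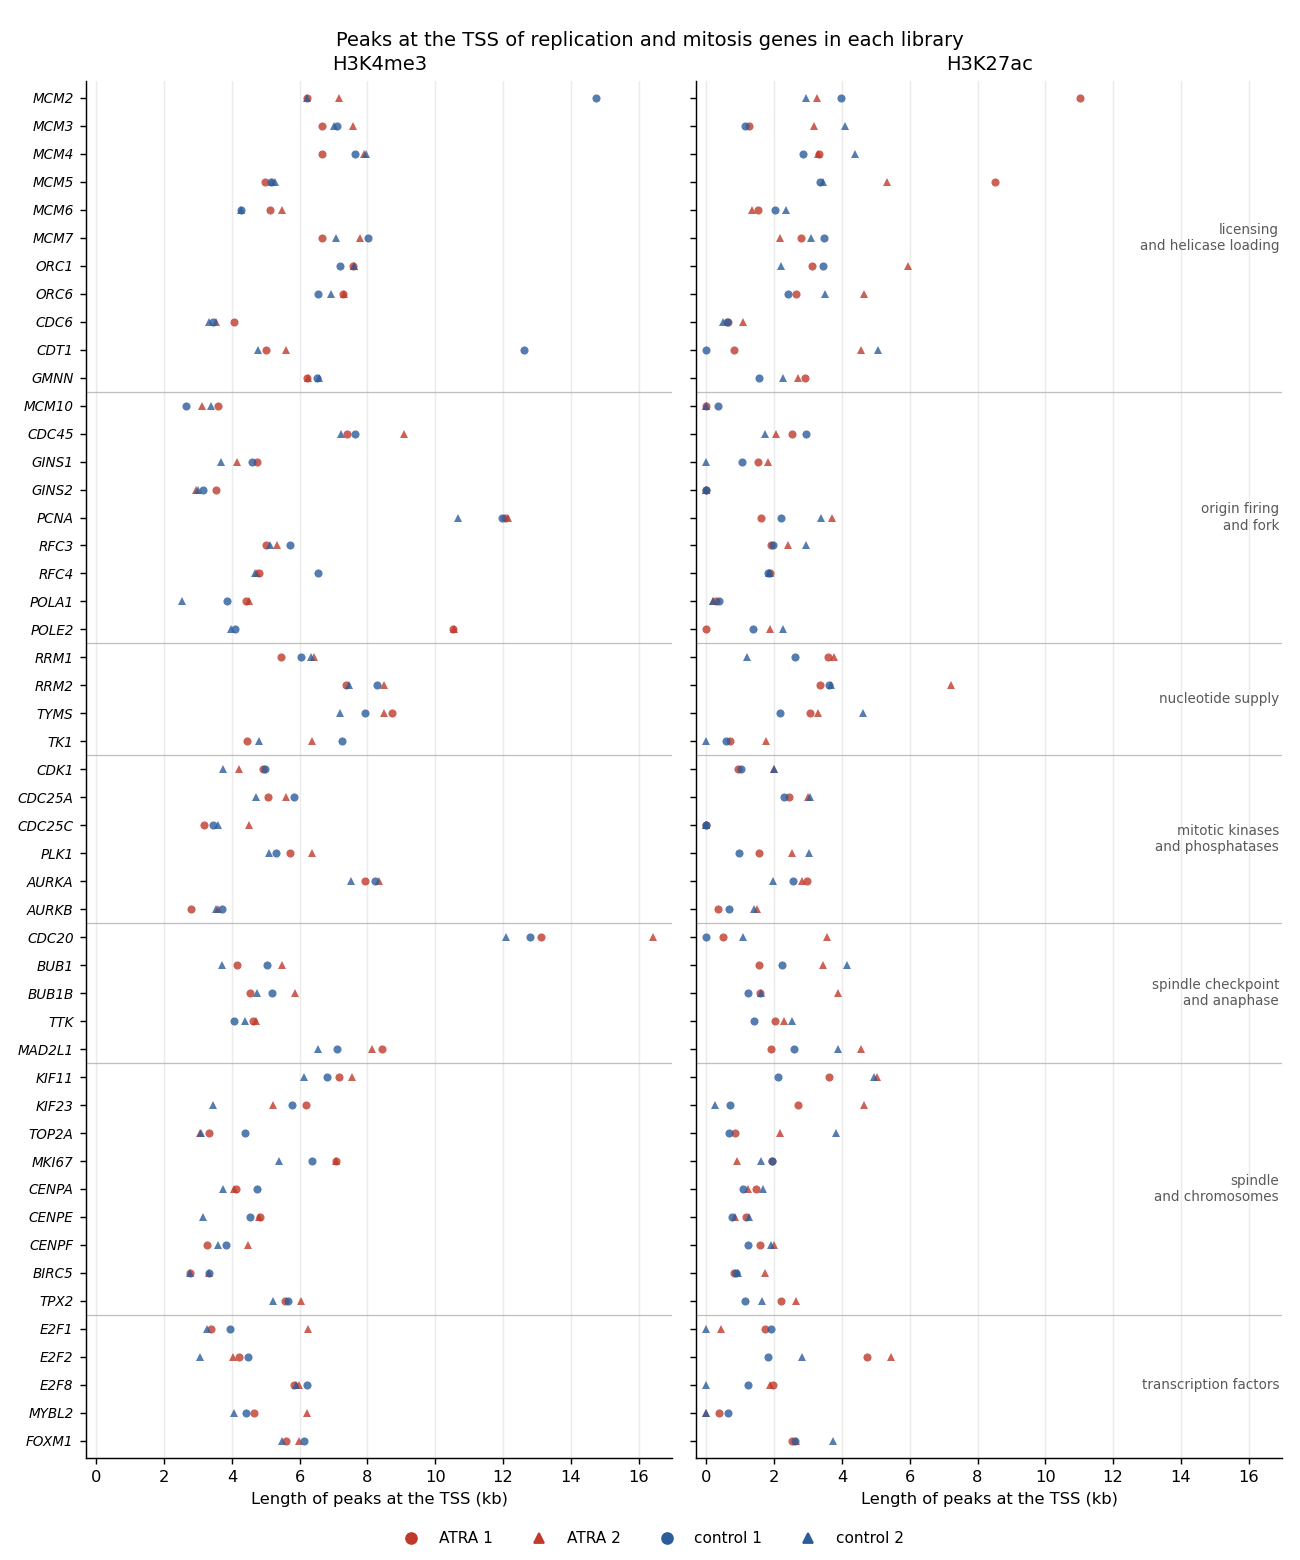
Length of the peaks at the TSS in kb for each of the 49 genes, H3K4me3 on the left and H3K27ac on the right, with 1 point per library (red ATRA, blue control, circles replicate 1, triangles replicate 2) and horizontal lines between roles. H3K4me3 is above 0 in every library of every gene, with POLE2 split between conditions and MCM2 and CDT1 wide in control replicate 1 only, while H3K27ac is 0 in all 4 libraries at GINS2 and CDC25C.

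No member passed an adjusted p of 0.05 for either mark or measure in limma with Benjamini-Hochberg adjustment over all genes tested, and 2 against 2 libraries allow no exact two-sided p below 0.33. For all genes, the H3K4me3 width at the TSS gave 0 calls among 10941 genes in limma, with 1213 higher and 80 lower at an unadjusted p under 0.05. The H3K27ac window gave 0 among 13376 in limma, with 2311 higher and 131 lower at an unadjusted p under 0.05. The H3K4me3 window gave 4 among 13378 (0.0149% in each direction), and the H3K27ac width at the TSS gave 47 higher (0.52%) and 2 lower (0.0221%) among 9033. At an unadjusted p under 0.05, the H3K4me3 window was higher at 1355 genes and lower at 91, and the H3K27ac width was higher at 987 and lower at 69. At the same unadjusted threshold, the members higher in ATRA numbered 1, 1, 2 and 2 for H3K4me3 window, H3K4me3 width, H3K27ac window and H3K27ac width, and no member was lower. A p above the threshold does not show that a length was the same in both conditions. With the replicate number as a block, CDC6, MCM5 and BUB1B were higher at an adjusted p under 0.05 in limma for H3K27ac window. These were 6.38% of the members tested, against 19.3% of all genes higher and 1.17% lower. With each library centred on its median, the higher and lower calls over all genes were 0.381% and 0.179% for H3K4me3 window, 0.292% and 0.0914% for H3K4me3 width, 0.837% and 0.15% for H3K27ac window, and 0.686% and 0.0664% for H3K27ac width, and POLE2 was the only member called, for H3K4me3 width.

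The H3K4me3 widths of the members at the TSS lay between 2515 bp (POLA1, control replicate 2) and 16413 bp (CDC20, ATRA replicate 2). The median width of the members was 5073 and 5977 bp in the ATRA libraries and 5701 and 4769 bp in the control libraries, so that the conditions overlapped. The median over all genes with a peak was 5581 and 5588.5 bp in ATRA and 5218.5 and 4564 bp in control. The change in width, on the scale log2(length + 1000 bp), had a median of 0.06 over the members and 0.15 over all genes tested, and 48 of the 49 members lay within 0.5 of 0. In 15 members both ATRA values exceeded both control values (41.9% of all genes) and in 1 both were below (4.83%). When each library was centred on its own median, the counts became 4 higher (18.0%) and 19 lower (25.1%), so the majority direction depended on that scaling. The member median was then −0.11 and that of all genes −0.02.

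Among the licensing genes, MCM6, a subunit of the helicase ring, had H3K4me3 widths of 5127 and 5486 bp in ATRA and 4271 and 4268 bp in control. The change was 0.26 ± 0.11 (SE; adjusted p = 0.441). With only the peaks of −log10 q of at least 5 the MCM6 difference took the opposite sign, at −1.05. GMNN, which encodes geminin, the inhibitor of CDT1, was the only member with both ATRA widths below both control widths, at 6206 and 6250 bp against 6499 and 6568 bp. The difference was −0.06 ± 0.09 (SE; adjusted p = 0.797).

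Control replicate 1 carried very long H3K4me3 peaks at 2 licensing genes that the other 3 libraries did not have. At MCM2, another helicase subunit, the widths were 6207 and 7154 bp in ATRA and 14749 and 6201 bp in control, and the peak of control replicate 1 ran on over the start of TPRA1, 7678 bp away. At CDT1 they were 5009 and 5605 bp in ATRA and 12615 and 4769 bp in control, where the long peak also covered the start of APRT, 8139 bp away. In control replicate 2 the peaks of the neighbors were called apart from those of MCM2 and CDT1, as in both ATRA libraries. The loading factor CDC6 had 4068 and 3542 bp in ATRA and 3430 and 3337 bp in control.

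Among the fork genes, POLE2 had the lowest adjusted p of any member in the 4 fits. Its H3K4me3 width was 10528 and 10556 bp in ATRA and 4091 and 3982 bp in control, a ratio of 2.61 and a change of 1.20 ± 0.09 (SE; adjusted p = 0.0797). After centring of the libraries the adjusted p was 0.0410, and over all 13 alternatives it ranged from 0.0410 to 0.842. The ATRA widths also took in the peak at the neighbor KLHDC1, whose TSS is 4906 bp away on the other strand. The control widths counted the POLE2 peak alone. In both ATRA libraries a single peak covered both starts, and in the control libraries 2 peaks were separated by gaps of 1815 and 1545 bp. The lengths of the 2 control peaks summed to 8808 and 8078 bp, against 10528 and 10556 bp for the joined ATRA peaks. H3K27ac at KLHDC1 was called in both ATRA libraries and in control replicate 2.

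The other fork and nucleotide genes varied less. POLA1, the catalytic subunit of the primase-bound polymerase, had 4423 and 4515 bp in ATRA and 3854 and 2515 bp in control (change 0.40 ± 0.19 SE, adjusted p = 0.482). The sliding clamp gene PCNA had 12068 and 12141 bp against 11957 and 10676 bp, with 1 peak over both its TSS and that of TMEM230 in every library. RRM2, the regulated subunit of ribonucleotide reductase, had 7379 and 8477 bp in ATRA and 8276 and 7458 bp in control. The ATRA values of POLA1 and PCNA exceeded the control values, and those of RRM2 overlapped with them.

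The H3K4me3 peaks of the mitotic genes overlapped between conditions at most members. CDK1, the mitotic kinase, had 4924 and 4198 bp in ATRA and 4974 and 3750 bp in control. PLK1, a kinase of centrosomes and spindle, had 5713 and 6353 bp against 5297 and 5080 bp. AURKB, the kinase of the chromosomal passenger complex, had 2801 and 3593 bp against 3698 and 3521 bp. The 2 ATRA values exceeded both control values at PLK1 alone of these 3 kinases.

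BUB1, a kinase of the spindle checkpoint, had 4136 and 5481 bp in ATRA and 5041 and 3701 bp in control. MKI67, which encodes the proliferation antigen Ki-67 of the mitotic chromosome surface, had 7068 and 7062 bp in ATRA and 6365 and 5388 bp in control (change 0.23 ± 0.11 SE, adjusted p = 0.483). TOP2A, the topoisomerase that disentangles sister chromatids, had 3336 and 3063 bp against 4375 and 3087 bp. The ATRA values lay above the control values at MKI67, and the groups overlapped at BUB1 and TOP2A. CENPE, a kinesin of the kinetochore, had 4827 and 4812 bp in ATRA and 4533 and 3152 bp in control, and CDC20 had 13117 and 16413 bp against 12804 and 12077 bp.

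For the transcription factors, E2F2, an activator, had H3K4me3 widths of 4212 and 4040 bp in ATRA and 4482 and 3064 bp in control. E2F8, a repressor of the same targets, had 5843 and 5977 bp against 6203 and 5900 bp. MYBL2 had 4650 and 6227 bp in ATRA and 4429 and 4067 bp in control. Only at MYBL2 of these 3 did the groups not overlap (change 0.28 ± 0.16 SE, adjusted p = 0.527). FOXM1, which drives mitotic genes, had 5604 and 5991 bp against 6141 and 5486 bp, and E2F1 had 3382 and 6246 bp against 3928 and 3253 bp.

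H3K27ac peaks at the TSS were narrower. Over the members that had a peak in a library, the median width was 1900 and 2644 bp in ATRA and 1812 and 2361 bp in control. The lowest value above 0 was 200 bp and the highest 11031 bp (MCM2, ATRA replicate 1). Of the 49 members, 46 had a peak in at least 2 libraries and were tested. Their median change was 0.11 on the log2 scale, against 0.30 for all genes tested. In 12 the ATRA values exceeded the control values (38.0% of all genes) and in 2 they were below (5.03%). Centred libraries gave 3 higher (17.6%) and 17 lower (23.2%), with a member median of −0.25 against −0.05 for all genes. The length covered genome-wide was lowest in control replicate 1 and highest in ATRA replicate 2, and its part in each member's value was not tested.

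**Figure D2:**
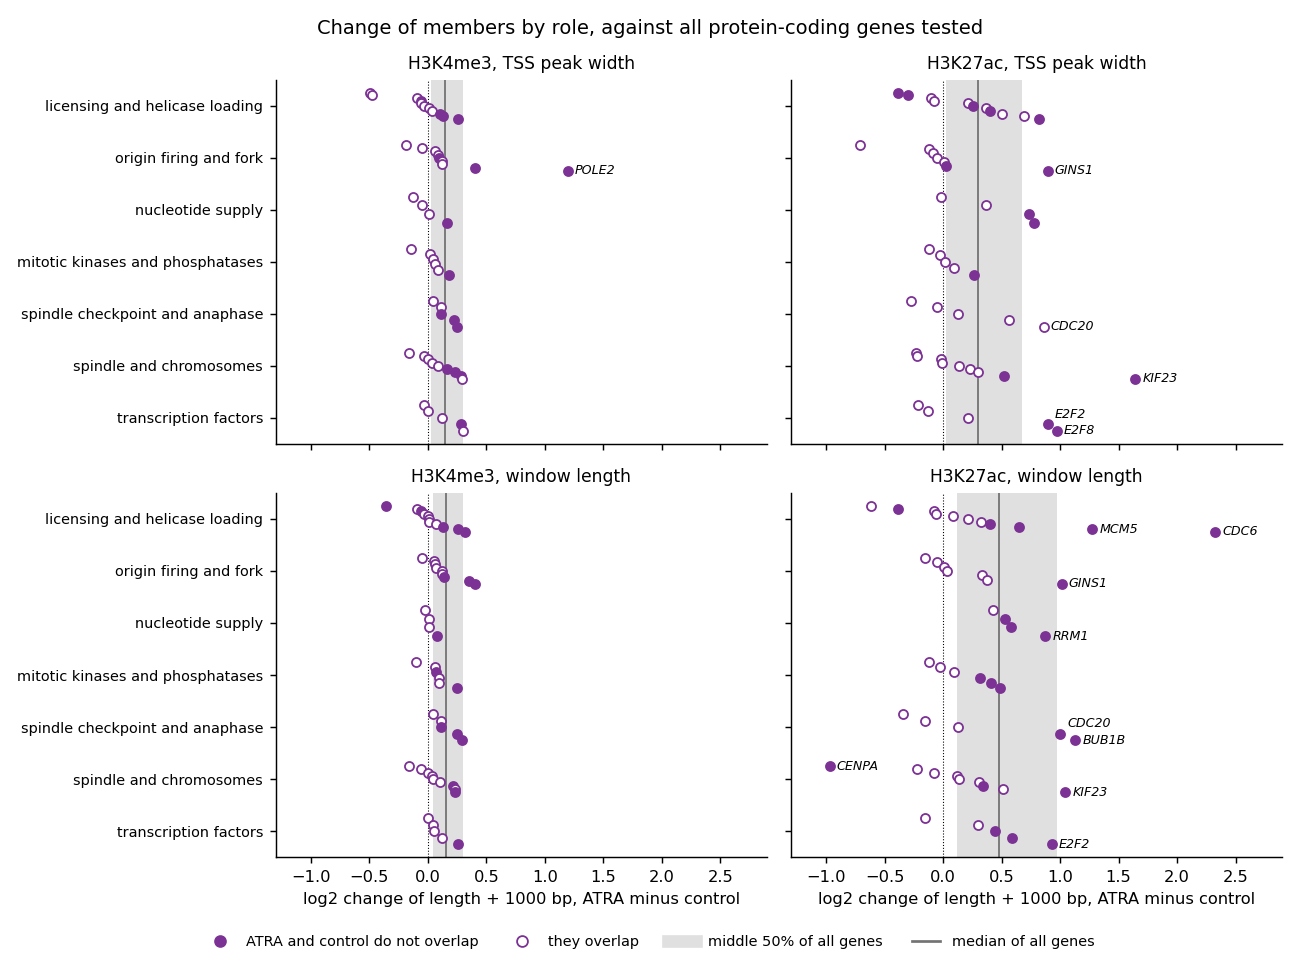
Change of peak length on the scale log2(length + 1000 bp), ATRA minus control, for each member by role (points, filled where the 2 ATRA values do not overlap with the 2 control values), for the width at the TSS above and the window length below. The gray band holds the middle 50% of all genes tested and the gray line is their median, 0.15 and 0.16 for H3K4me3 and 0.30 and 0.48 for H3K27ac. Most members lie inside or to the left of the band. POLE2, KIF23, MCM5 and CDC6 are among those to its right, as are E2F8, GINS1, E2F2, CDC20, TK1, RRM1 and MCM2 for H3K27ac width.

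The largest change in H3K27ac width among the members was at KIF23, the kinesin of the central spindle that acts in cytokinesis. Its peaks measured 2705 and 4651 bp in ATRA and 706 and 260 bp in control, a ratio of 7.61 between the means of 3678 ± 1376 and 483 ± 315 bp (SD, n = 2 each). The change was 1.64 ± 0.37 (SE; adjusted p = 0.228), and both ATRA values lay above both control values with either scaling. The ATRA peaks began at positions −1973 and −3341 bp from the TSS, whereas both control peaks lay downstream of it, 61 to 766 and 300 to 559 bp from the TSS. The H3K4me3 widths overlapped between conditions, at 6198 and 5226 bp in ATRA and 5765 and 3427 bp in control.

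E2F2 had H3K27ac widths of 4742 and 5459 bp in ATRA and 1820 and 2816 bp in control, a change of 0.89 ± 0.28 (SE; adjusted p = 0.347) that kept its direction without overlap after centring. E2F8 had 1978 and 1872 bp in ATRA and 1231 and 0 bp in control (0.97 ± 0.51 SE, adjusted p = 0.559). GINS1 had 1528 and 1802 bp in ATRA and 1050 and 0 bp in control (0.89 ± 0.48 SE, adjusted p = 0.570). At both E2F8 and GINS1 the missing peak was in control replicate 2. At E2F8 that library had peaks from 757 to 1625 bp and from −2435 to −1716 bp around the TSS, just outside the interval counted.

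The sequences of the 250 bases before the starts of KIF23, GINS1 and E2F2 are shown. These were among the members with the largest changes in H3K27ac width whose groups did not overlap. Capitals mark matches to E2F, CHR and CCAAT letters on either strand, and each line reads 5′ to 3′ on the gene's strand. The KIF23 stretch is chr15:69706438-69706687 on the + strand, of which 197 bases lie in annotated exons of other KIF23 transcripts or of the antisense KIF23-AS1. The GINS1 stretch is chr20:25388059-25388308 on the + strand, 16665 bp inside the gene's longest annotated extent, with 62 bases in exons of GINS1. The E2F2 stretch, chr1:23857726-23857975 on the − strand, overlaps no annotated transcript.
KIF23: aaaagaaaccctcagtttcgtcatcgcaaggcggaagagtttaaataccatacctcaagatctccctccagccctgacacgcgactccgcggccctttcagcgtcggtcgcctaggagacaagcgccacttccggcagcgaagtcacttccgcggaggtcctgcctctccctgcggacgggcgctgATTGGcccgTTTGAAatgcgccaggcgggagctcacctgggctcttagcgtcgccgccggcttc
GINS1: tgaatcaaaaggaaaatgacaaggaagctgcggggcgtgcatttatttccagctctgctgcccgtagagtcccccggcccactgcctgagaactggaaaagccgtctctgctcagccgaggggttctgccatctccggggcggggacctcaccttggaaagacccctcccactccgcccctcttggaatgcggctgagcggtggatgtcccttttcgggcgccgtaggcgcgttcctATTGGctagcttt
E2F2: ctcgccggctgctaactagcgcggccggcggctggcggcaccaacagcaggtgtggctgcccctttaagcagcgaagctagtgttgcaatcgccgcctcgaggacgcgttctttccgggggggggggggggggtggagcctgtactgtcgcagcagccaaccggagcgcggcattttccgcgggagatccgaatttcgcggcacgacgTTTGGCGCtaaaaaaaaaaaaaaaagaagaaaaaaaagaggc

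In KIF23 the CHR letters began 55 bases before the TSS and a CCAAT box, read on the other strand, 64 bases before it. In E2F2 the E2F letters began 42 bases before the TSS. GINS1 had a CCAAT box 13 bases before the TSS, and its E2F match lay past the printed stretch, 6 bases into the transcript. The letters searched were TTTGGCGC, TTTCGCGC, TTTCCCGC and TTTGGCGG for E2F, TTTGAA and TTCGAA for CHR, and CCAAT for the CCAAT box, on both strands from 250 bases before to 50 bases after the TSS.

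E2F letters were found in 23 of the 49 member promoters (46.9%), against 4.43% of 20079 promoters of the same length and 6.16% of those with H3K4me3 in all 4 libraries. CHR letters were in 21 (42.9%), against 12.9% of all promoters, and a CCAAT box was in 37 (75.5%), against 35.9%. Of the 20 licensing and fork genes, 15 held E2F letters and 1 held CHR letters (MCM6). Of the 20 genes of kinases, checkpoint and spindle, 4 held E2F letters and 18 held CHR letters. Both were found in 4 members, MCM6, CDK1, KIF11 and CENPA. Matches of E2F and CHR never shared bases, while E2F and CCAAT matches did in MCM7 and CHR and CCAAT matches in MKI67. A match is a description of the letters and not of a bound site.

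**Figure D3:**
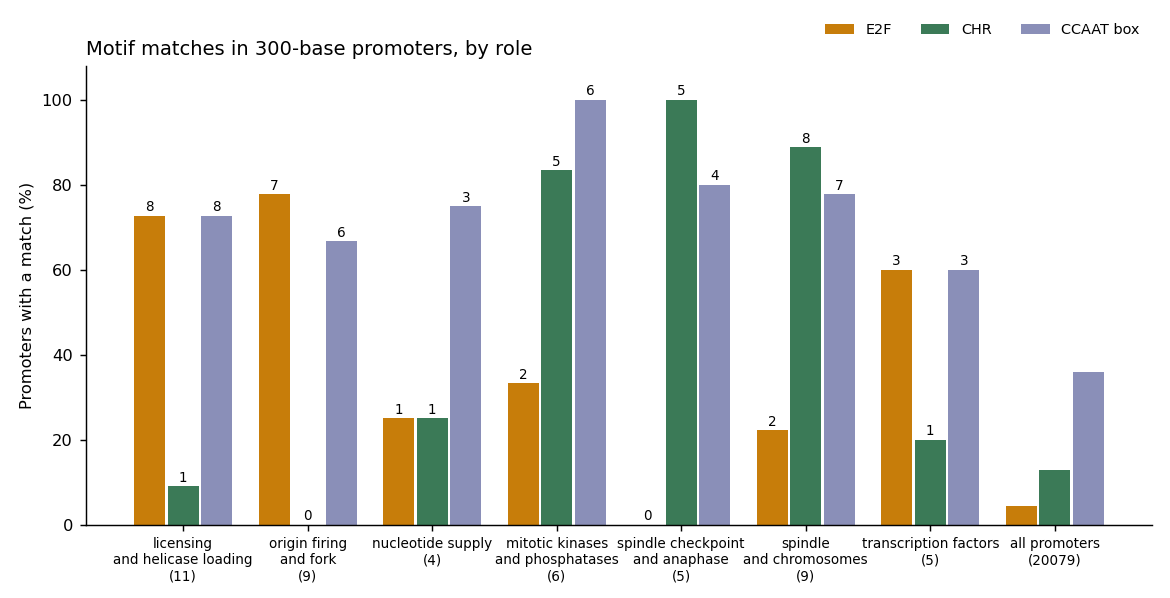
Percentage of promoters (250 bases before to 50 after the TSS) with at least 1 match to the E2F, CHR or CCAAT letters, by role, with the number of genes in parentheses and the number with a match above each bar, and all 20079 promoters on the right. E2F bars are tall in the licensing and fork genes (8 of 11 and 7 of 9), and CHR bars in the mitotic kinases, the checkpoint and the spindle genes (5 of 6, 5 of 5 and 8 of 9).

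The helicase genes did not share a direction in H3K27ac width. MCM5 had 8516 and 5341 bp in ATRA and 3353 and 3427 bp in control (change 0.82 ± 0.31 SE, adjusted p = 0.444), with the ATRA peaks starting at −6634 and −3852 bp from the TSS against −1329 and −1403 bp in control. MCM6 had 1532 and 1356 bp in ATRA and 2029 and 2361 bp in control (−0.39 ± 0.26 SE, adjusted p = 0.641). MCM7 had 2776 and 2176 bp in ATRA and 3459 and 3076 bp in control (−0.30 ± 0.24 SE, adjusted p = 0.707). MCM6 and MCM7 were the only members with both ATRA widths below both control widths, and the TSS of MCM7 lies 246 bp from that of AP4M1, which every one of these peaks also covered. MCM2 had 11031 and 3249 bp in ATRA and 3982 and 2946 bp in control, where the long peak of ATRA replicate 1 ran on over TPRA1.

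Of the other members with both ATRA widths above both control widths, GMNN had H3K27ac widths of 2894 and 2702 bp in ATRA and 1547 and 2249 bp in control. RRM1, the large subunit of ribonucleotide reductase, had 3588 and 3768 bp in ATRA and 2609 and 1195 bp in control. TPX2, which activates AURKA on the spindle, had 2204 and 2644 bp against 1143 and 1651 bp. For AURKA itself, the kinase of the spindle poles, the values were 2972 and 2814 bp against 2542 and 1961 bp. In none of these 4 did the smaller ATRA value exceed the larger control value by more than 1000 bp. RFC4, a subunit of the clamp loader, was also counted, although its 1871 and 1873 bp in ATRA exceeded the 1812 and 1843 bp in control by less than 100 bp. Of all members, only CDC6 had both marks wider at the TSS in both ATRA libraries, with H3K27ac at 637 and 1092 bp against 621 and 490 bp. MCM6 was higher for H3K4me3 and lower for H3K27ac, and GMNN was the reverse.

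At the other representatives of the roles the H3K27ac widths of ATRA and control overlapped. PCNA had 1613 and 3719 bp in ATRA and 2198 and 3369 bp in control, and RRM2 had 3350 and 7207 bp against 3610 and 3665 bp. CDK1 had 933 and 2004 bp against 1028 and 1987 bp. PLK1 had 1548 and 2515 bp against 971 and 3018 bp, and AURKB 351 and 1495 bp against 670 and 1392 bp. In all 5 the 2 replicates of a condition differed by more than the condition means, except for RRM2 in control.

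BUB1 had H3K27ac widths of 1562 and 3443 bp in ATRA and 2232 and 4162 bp in control. TOP2A had 847 and 2174 bp against 653 and 3834 bp, and MKI67 1942 and 904 bp against 1947 and 1621 bp. FOXM1 had 2511 and 2648 bp against 2620 and 3746 bp. The groups overlapped at all 4, and the second control library held the widest peak at BUB1, TOP2A and FOXM1. With only the peaks of −log10 q of at least 5, H3K27ac at the TSS remained in both control libraries and in no ATRA library at BUB1 and POLE2 (0.528% of all genes), and no member had it in all 4.

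In the wider windows, which take in the gene body and 10 kb on each side, the H3K4me3 length of ATRA exceeded that of control in 15 of 49 members (42.0% of all genes) and was below it in 2 (3.97%). Centred libraries gave 5 higher (17.6%) and 20 lower (24.5%). The median change was 0.07, against 0.16 for all genes, and all 49 members were within 0.5 of 0. The 2 that lay below were GMNN and CDT1, whose window held 10185 and 9333 bp in ATRA and 15335 and 10618 bp in control. The window of POLE2 held 16974 and 16514 bp in ATRA and 13308 and 12500 bp in control (0.35 ± 0.12 SE, adjusted p = 0.438), and that of CDC20 15164 and 16413 bp against 13442 and 12077 bp (0.29 ± 0.13 SE, adjusted p = 0.484). For H3K27ac, 47 members were tested, and 18 were higher (45.5% of all genes) and 2 lower (4.3%). Centred libraries gave 5 higher (20.9%) and 21 lower (25.1%). The median change was 0.31 against 0.48 for all genes, and −0.24 against −0.07 after centring.

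CDC6 had the largest window change of any member. Its H3K27ac window held 10010 and 6159 bp in ATRA and 1101 and 490 bp in control, a change of 2.33 ± 0.41 (SE; adjusted p = 0.104). Of these lengths, 8313 and 3835 bp in ATRA and 480 and 0 bp in control lay past the end of CDC6, towards RARA, the gene of retinoic acid receptor alpha, whose TSS is 21301 bp from that of CDC6. In ATRA, peaks of 29639 and 3635 bp covered the RARA start, and no control peak in the window did. A further peak at the 3′ end of CDC6, 1069 and 1232 bp long, was called in both ATRA libraries and in neither control library. Over the gene body alone the CDC6 change was 1.00 (adjusted p = 0.195), and over 10 alternatives the adjusted p ranged from 0.0044 to 0.395 while the sign stayed the same. The H3K4me3 window of CDC6 held 4614 and 4343 bp in ATRA and 3430 and 3337 bp in control (0.32 ± 0.14 SE, adjusted p = 0.478).

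**Figure D4:**
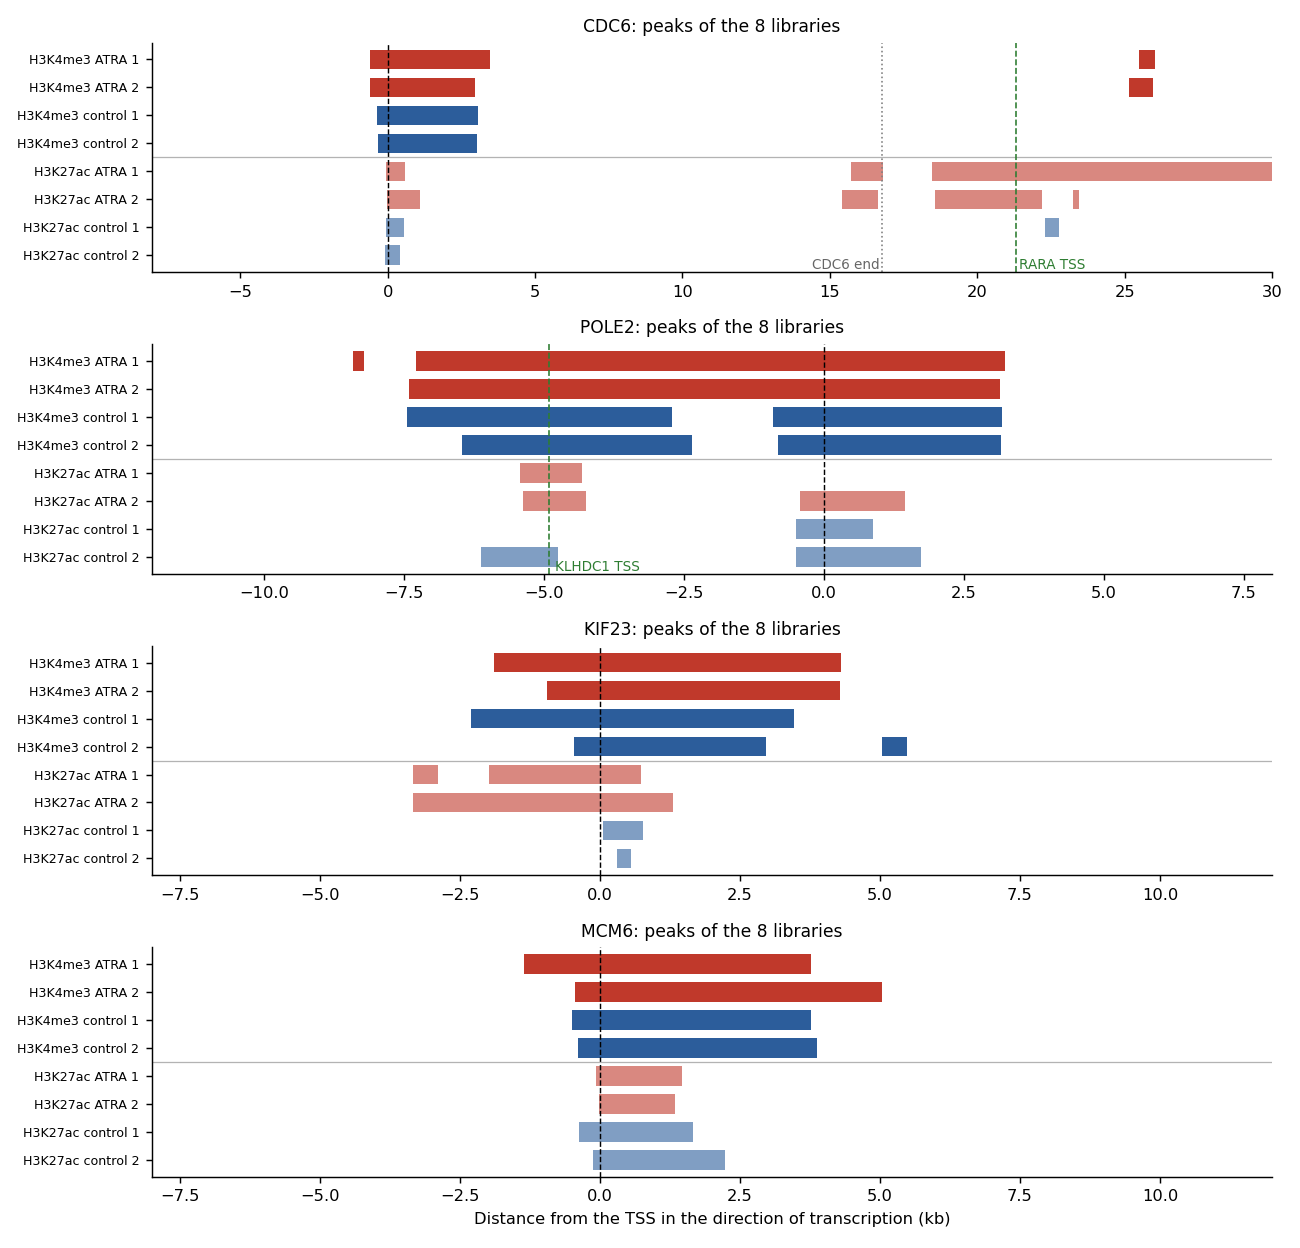
Peaks around 4 start sites in each of the 8 libraries, by distance from the TSS in the direction of transcription (kb; red ATRA, blue control, darker bars H3K4me3, lighter bars H3K27ac, dashed lines TSS). H3K27ac covers the RARA start in ATRA only, the H3K4me3 peaks of POLE2 and KLHDC1 are joined in ATRA and 1815 and 1545 bp apart in control, the H3K27ac peak of KIF23 reaches upstream in ATRA only, and at MCM6 H3K27ac is shorter in both ATRA libraries.

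At MCM5, peaks at the TSS held 8516 and 5341 bp of the H3K27ac window in ATRA. The whole window held 13467 and 6802 bp of H3K27ac in ATRA and 3353 and 3427 bp in control (change 1.28 ± 0.43 SE, adjusted p = 0.232), and both ATRA libraries had peaks further into the gene, the nearest starting 6840 and 9642 bp from the TSS, that neither control library had. BUB1B, the checkpoint kinase BubR1, held 2783 and 6845 bp against 1216 and 1800 bp (1.13 ± 0.48 SE, adjusted p = 0.312). The window of CDC20 held 3055 and 6005 bp against 1516 and 1820 bp (1.00 ± 0.41 SE, adjusted p = 0.302), of which 2552 and 2451 bp in ATRA and 1516 and 741 bp in control lay past the gene. That of KIF23 held 5086 and 11067 bp against 2643 and 3740 bp (1.04 ± 0.47 SE, adjusted p = 0.337), part of it at the start of RPLP1. Away from the TSS the KIF23 lengths overlapped, at 2381 and 6416 bp in ATRA and 1937 and 3480 bp in control.

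MCM7 was narrower at its own TSS but longer over its window, at 9166 and 8003 bp in ATRA against 5515 and 4751 bp in control. Of this, 6390 and 5827 bp in ATRA and 2056 and 1675 bp in control lay past the gene, at peaks over COPS6 and towards ZNF3. CENPA, the centromeric histone variant, had the most negative window change, with 1466 and 1973 bp in ATRA against 2353 and 7364 bp in control (−0.97 ± 0.54 SE, adjusted p = 0.424). Its widths at the TSS overlapped, at 1466 and 1218 bp against 1089 and 1675 bp. Both control libraries had peaks upstream of the canonical TSS that neither ATRA library had, of 391 and 1057 bp and of 873 and 2517 bp. GINS1 held 1528 and 2957 bp in its window in ATRA and 1454 and 0 bp in control (1.01 ± 0.60 SE, adjusted p = 0.446).

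Peaks away from the TSS made up between 29.1% (control replicate 1) and 38.1% (ATRA replicate 2) of the H3K27ac window length summed over the members. For H3K4me3 this share lay between 22.3% and 25.7%. The H3K27ac length away from the TSS was higher in both ATRA libraries at 9 members (BUB1B, CDC20, CDC25A, CDC25C, CDC6, MCM5, MCM7, MYBL2 and PCNA) and lower in both at CDT1 and CENPA. Over the 13376 genes tested for the window, 34.9% were higher and 4.56% lower away from the TSS. At CDC25A, a phosphatase of S phase entry, and at CDC25C the difference was in the window only. The only H3K27ac peak in the CDC25C window, in every library, covered the start of FAM53C, 6462 bp from that of CDC25C. It measured 2927 and 4302 bp in ATRA and 2415 and 2924 bp in control. In 25 members the window held the TSS of another protein-coding gene. In the 24 without such a neighbor, the median H3K27ac window change was 0.13 among 22 tested, and in the 25 with a neighbor 0.32.

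By role, the median change in H3K27ac width was 0.25 for licensing, −0.05 for the fork, 0.55 for nucleotide supply, 0.02 for kinases and phosphatases, 0.12 for the checkpoint, 0.13 for spindle and chromosomes and 0.21 for the transcription factors, against 0.30 over all genes. The roles hold 4 to 11 genes, and their medians were not tested against each other. For H3K4me3 width the role medians lay between −0.03 (licensing) and 0.12 (transcription factors), against 0.15 over all genes.

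The other genes of the same processes are given for comparison, with no test between lists. Of 38 further replication genes, 37 had H3K4me3 at the TSS in all 4 libraries, and their H3K27ac width was higher in 9 and lower in 1 of 33 tested, with a median of 0.17, and after centring it was higher in 3 and lower in 10. Of 49 further mitosis genes, all 49 had H3K4me3 in all 4 libraries, and their H3K27ac width was higher in 12 and lower in 6 of 47 tested, with a median of 0.18, and after centring it was higher in 2 and lower in 18. Of 16 E2F and DREAM genes, all 16 had H3K4me3 in all 4 libraries, and the H3K27ac width was higher in 1 and lower in 1 of 14, and after centring in 0 and 6. None of these genes passed an adjusted p of 0.05 in limma. The 31 genes of the 26S proteasome, a complex of every cell, had an H3K27ac width median of 0.15, higher in 10 and lower in 2 of 30, and after centring higher in 4 and lower in 7. Over all genes tested, 38.0% were higher and 5.03% lower, and after centring 17.6% and 23.2%.

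Genes of granulocyte maturation were measured in the same libraries. Of these 25 genes, 17 had a peak in at least 2 libraries and were tested for H3K27ac width, with 13 higher, 0 lower and a median change of 1.36. Genes with a peak in ATRA alone passed this filter through the condition in which they were high, so the count and the median are descriptions of those tested and not of the list. After centring, 12 were higher and 2 lower, with a median of 1.01, and S100A9, a calcium-binding protein of neutrophils, was the only one past an adjusted p of 0.05 in the reported fit. Of all 25 genes, 14 and 14 had an H3K4me3 peak at the TSS in the ATRA libraries, and 10 and 8 in the control libraries.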

How the data were processed

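Chromatin immunoprecipitation of H3K4me3 and H3K27ac in HL-60 cells gave 8 peak lists, 1 per library. Per the labels and the study's methods, the authors trimmed adapters with cutadapt, used Bowtie for alignment on hg19, and ran MACS2 in its broad mode, without a fragment model, on every library by itself. Input libraries were made, and their use in the peak call is not given in the sources used here. The deposited files give peak positions, a score, a fold enrichment and −log10 p and q values. Positions were used for all measures and −log10 q only for a stricter threshold of 5. Read depth is unknown, so no interval from counts can be given.

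The 49 members and all gene lists were chosen with earlier results of these data known. Gene positions and canonical transcripts came from GENCODE release 44 mapped to GRCh37, and promoter sequences were read from that genome. A further promoter sequence is not reported here. Lengths were compared as log2(length + 1000 bp) among genes with peaks in at least 2 of the 4 libraries of a mark, using limma 3.58.1 in R 4.3.3 with Benjamini-Hochberg adjustment over all genes tested and a threshold of 0.05. The code was tested on simulated data. Counting, motif search and plots used Python 3.11.15, pandas 2.3.3, numpy 2.4.6, scipy 1.17.1 and matplotlib 3.10.9. Nothing in the labels says that replicates were separate cultures, so p-values measure the spread between these libraries, which may be technical.

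Genes were named with their values when they passed 0.05, when they were among the 5 largest changes per mark, measure and direction without overlap of the groups, when they lacked a peak at the TSS in at least 1 library, or when they were set representatives of a role. Neighbor genes, the H3K27ac widths of GMNN, RRM1, TPX2, AURKA and RFC4, and the windows of MCM7 were named after their values were seen. Alternatives changed the scaling, the pseudocount (100 bp), the filter, the q threshold, the flank (0 or 20 kb), the TSS interval (the base itself or 2000 bp), the start used, the peak taken, the replicate block and the libraries included.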

Additional observations from a re-analysis of the deposited data

How the results depend on the processing

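No member passed 0.05 under any alternative except as given here. Centring the libraries gave 1 call for H3K4me3 width (POLE2), and turned the counts of non-overlapping members to 5 higher and 20 lower for H3K4me3 window (median −0.11), 4 and 19 for H3K4me3 width (−0.11), 5 and 21 for H3K27ac window (−0.24) and 3 and 17 for H3K27ac width (−0.25). Peaks of −log10 q of at least 5 gave 2 lower for H3K4me3 width (5.96% of all genes). For H3K27ac window they gave 1 higher and 2 lower of 10 members tested, against 25.8% and 11.6% of all genes. The median was −0.39, against 0.35 over all genes. For H3K27ac width they gave 0 higher and 2 lower of 9 tested, against 22.8% and 12.8% of all genes. The median was −0.67, against 0.18 over all genes. At an unadjusted p under 0.05 in limma, 2 of these 9 members and 82 of 893 genes were lower. With these peaks, 0 members had H3K27ac at the TSS in all 4 libraries (0.0398% of all genes). MCM6 turned with them to −1.05 for H3K4me3 window and width (adjusted p 0.746 and 0.697 in limma). The annotated gene 5′ end gave 2 lower for H3K4me3 width (4.83% of all genes). For the H3K27ac window, a flank of 20 kb gave 1 lower (4.16% of all genes) and no flank 6 lower (5.61%). The cause was not tested.

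The labels share only replicate numbers. Same-numbered libraries deviated together with a correlation of 0.256 and 0.212 (H3K4me3 window and width) and 0.535 and 0.403 (H3K27ac). With the replicate block, 3 members passed for H3K27ac window, CDC6 (adjusted p = 0.0044 in limma), MCM5 (0.0392, range over 11 alternatives 0.0392 to 0.982) and BUB1B (0.0448, range 0.0448 to 0.911), and it changed no other call of a member. These are 3 of 47 members (6.38%), while over all genes the block gave 2582 higher (19.3%) and 157 lower (1.17%) for H3K27ac window, 252 (2.79%) and 22 (0.244%) for H3K27ac width, 92 (0.688%) and 14 (0.105%) for H3K4me3 window and 0 for H3K4me3 width (1245 higher and 82 lower at an unadjusted p under 0.05). Members higher within both numbers were 18, 18, 25 and 18 and lower 6, 4, 7 and 7 for H3K4me3 window, H3K4me3 width, H3K27ac window and H3K27ac width, against 56.1%, 54.3%, 65.1% and 55.6% of all genes higher and 7.05%, 8.41%, 8.76% and 9.91% lower.

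Leaving out 1 library at a time gave no call among the members. H3K4me3 window ranged from 16 to 34 higher and 4 to 15 lower (median 0.00016 to 0.14), H3K4me3 width from 17 to 31 and 3 to 16 (−0.0079 to 0.10), H3K27ac window from 20 to 32 and 3 to 15 (0.064 to 0.46), and H3K27ac width from 13 to 27 and 3 to 16 (−0.059 to 0.32). Over all genes, in the same order, 44.7% to 82.7%, 46.0% to 77.3%, 50.6% to 77.6% and 46.4% to 69.3% were higher, and 5.34% to 27.3%, at least 6.81% (up to 2843 of 10918 genes), 6.31% to 18.9% and 8.68% to 22.3% lower. Calls over all genes reached 653 higher and 3 lower for H3K27ac window without control replicate 2 and 61 higher and 6 lower for H3K4me3 window without ATRA replicate 1. Fewer libraries overlap less by construction. For H3K4me3 the most higher members came without control replicate 1 (34 and 31) and the most lower without control replicate 2 (15 and 16). For H3K27ac the most higher came without control replicate 2 (32 and 27) and the most lower without control replicate 1 (15 and 16). Without ATRA replicate 1 the higher counts were 27, 27, 29 and 24, and without ATRA replicate 2 the lower counts were 11, 14, 10 and 12.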
